A study of Homo sapiens with 4 samples.

Results

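The genes of 5 noncoding RNAs that RNA polymerase III transcribes were examined in ChIP-seq of K562 cells: RN7SL1 and RN7SL2, which encode 7SL RNA, RN7SK, which encodes 7SK RNA, RPPH1, which encodes the RNA of RNase P, and RMRP, which encodes the RNA of RNase MRP. They were selected on the peaks, with their fold enrichments, listed at them in these 2 libraries, and are 5 of the 59679 genes annotated on the assembled chromosomes. A gene was counted as holding a peak where a peak overlapped it by at least 1 bp. Of the 12662 peaks labelled HA, 3 lay at these genes, and of the 6874 peaks labelled WT, 5 did. All values below are therefore a description, and no test was made on them.

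K562 is a human cell line established from a chronic myeloid leukemia. The untreated cultures overexpressed either HA-PHF6, the chromatin protein PHF6 carrying an HA tag, or HA, and an HA antibody was used on their cross-linked chromatin. Each of the 2 ChIP libraries was sequenced with its own input, which is chromatin without immunoprecipitation, with 1 library per condition. Whether the lines were single clones is not given in the sources used here, the peak lists hold no expression by which the cell type could be checked, and PHF6 of the cells themselves carries no tag in either line. HA and WT are the words of the titles, which do not settle which library held HA-PHF6, so both are named by these labels. After duplicates were removed, 16132466 ChIP tags (sequenced fragment ends) labelled HA and 22257947 labelled WT were left. Without replicates, no difference between the libraries could be set against a spread between replicates, and the intervals given cover counting error only.

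These RNAs are among the abundant noncoding RNAs of human cells. 7SL RNA is the scaffold of the signal recognition particle, which brings ribosomes that make secreted proteins to the endoplasmic reticulum. 7SK RNA holds the kinase P-TEFb in an inactive particle and so restrains the release of paused RNA polymerase II. The RNA of RNase P cuts the leader from precursor transfer RNAs, and the RNA of RNase MRP takes part in the maturation of ribosomal RNA. RN7SK, RPPH1 and RMRP have promoters that lie wholly upstream of the transcribed sequence, with a distal element that often contains an octamer, a proximal sequence element and a TATA box. The 7SL genes also use elements within the transcribed sequence. RN7SK is transcribed toward higher coordinates, and RPPH1 and RMRP toward lower ones.

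The upstream sequences of RPPH1 and RMRP are shown because the question at each gene was whether the peak lay on the promoter or on the transcribed body. RPPH1 lies head to head with PARP2, with 223 bp between the genes, and RMRP lies head to head with CCDC107, with 272 bp between them. The sequences are from RefSeq (GRCh38.p14), in the windows given there for the promoters of PARP2 and CCDC107, read on the strand of RPPH1 and RMRP and ending toward their first base. That of RPPH1 covers chr14:20343412-20343634, from 223 to 1 bp upstream of the gene, on the minus strand. That of RMRP covers chr9:35658042-35658291, from 272 to 23 bp upstream, also on the minus strand. Capitals mark TTTGCAT (the last 7 letters of the octamer), ACCNTAA (the core of many proximal sequence elements), TATAA and GGGCGG (the Sp1 motif).
RPPH1 upstream: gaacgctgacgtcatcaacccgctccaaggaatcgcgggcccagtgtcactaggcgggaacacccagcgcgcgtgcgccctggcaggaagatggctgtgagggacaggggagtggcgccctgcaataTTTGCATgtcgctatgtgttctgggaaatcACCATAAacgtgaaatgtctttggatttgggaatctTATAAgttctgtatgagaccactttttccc
RMRP upstream: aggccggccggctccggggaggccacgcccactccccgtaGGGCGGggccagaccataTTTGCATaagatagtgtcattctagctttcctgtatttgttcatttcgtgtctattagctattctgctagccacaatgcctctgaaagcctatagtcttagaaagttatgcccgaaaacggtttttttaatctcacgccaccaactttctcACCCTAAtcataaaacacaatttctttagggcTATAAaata

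Both stretches held the octamer letters, the proximal element core and TATAA in this order on the strand of the RNA gene. In RPPH1 the letters lay 96 to 90 bp, 66 to 60 bp and 30 to 26 bp upstream of the first base of the gene. In RMRP they lay 214 to 208 bp, 63 to 57 bp and 31 to 27 bp upstream, and GGGCGG lay 232 to 227 bp upstream. On either strand, TATAA was found in 20.5% of the 34943 RefSeq promoter windows, which all have the same length, ACCNTAA in 5.57%, TTTGCAT in 4.47% and GGGCGG in 44.9%. TATAA also matched the opposite strand in RPPH1, at an overlapping place. The octamer letters, the proximal element core and the TATA box core, all 3 on 1 strand, stood in 24 windows (0.0687%), which include the 2 shown. For RN7SK, the window of its neighbour GSTA4 covers the bases from 335 to 86 bp upstream, and none of the 4 motifs was found there. The window stops short of the distances at which TATAA and the proximal element core lay at RPPH1 and RMRP, so for these it could not give an answer. The upstream sequences of RN7SL1 and RN7SL2 were not analysed here.

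The library labelled WT held a peak at 5 of 5 genes and the library labelled HA at 3 of 5, RN7SL1, RN7SK and RMRP. As a background, 2522 other genes with a length from 216 to 426 bp were counted, and 0.159% of them held a peak labelled WT and 0.317% a peak labelled HA. Of these genes, 2378 were annotated as pseudogenes, and those with a peak labelled WT include RN7SL3, a further 7SL gene. Pseudogenes of the 5 genes themselves were not left out where their length fell in this range, as with RN7SL854P. Only uniquely mapped reads were kept, and what this does to the shares at such copies was not tested. No further peak lay within 3000 bp of any of the 5 genes in either list. The pileup, which is the number of extended tags over the summit, and the background, which is the local tag number that the input predicts, are given for each gene below, and the fold enrichment is their ratio with 1 added to each.

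**Figure D1:**
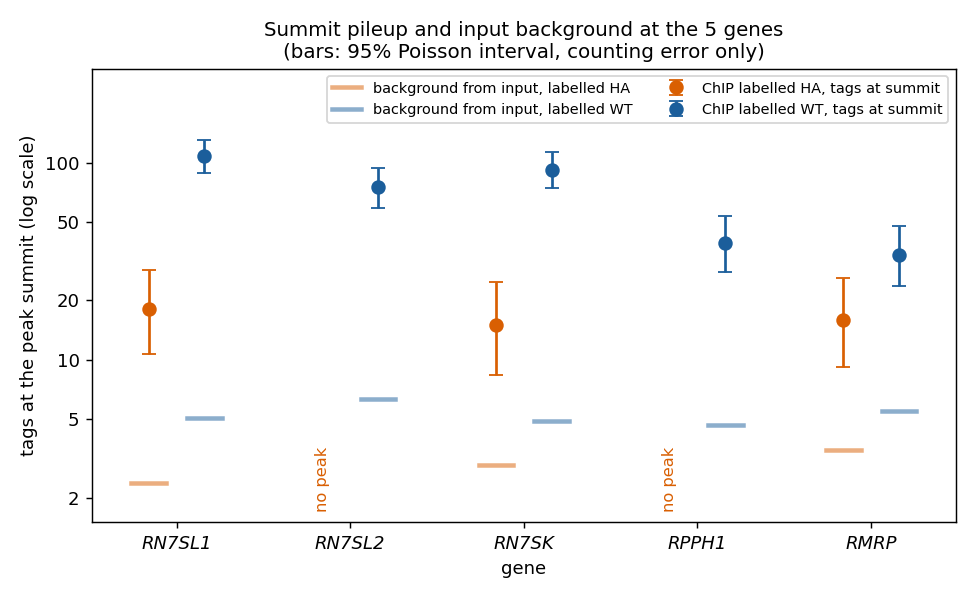
Tags at the peak summit (log scale) at each gene, with orange points for the library labelled HA, blue points for the library labelled WT and bars for the 95% Poisson interval of each pileup. Short lines give the background from the input. The 5 blue points lie between 34 and 108 tags, the 3 orange points between 15 and 18 tags, and RN7SL2 and RPPH1 had no peak labelled HA.

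RN7SL1 spans 299 bp of chromosome 14, from 49586580 to 49586878, within the span of the ribosomal protein gene RPS29. The peak labelled WT reached 108 tags (95% Poisson interval 88.6 to 130) over a background of 5.09 tags (fold enrichment 17.9, −log10 q 94.1.) The peak labelled HA reached 18 tags (10.7 to 28.4) over a background of 2.38 tags (fold enrichment 5.62, −log10 q 6.01.) It was the only one of the 3 peaks labelled HA at these genes with a −log10 q of 5 or more, a limit that all 5 peaks labelled WT passed and that a peak labelled HA passed at 0.0397% of the other genes of similar length and a peak labelled WT at 0%. Per 1000000 ChIP tags kept, the summits came to 4.85 tags labelled WT and 1.12 tags labelled HA, a ratio of 4.35 (exact 95% interval 2.63 to 7.61).

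RN7SL2, the other 7SL gene, spans 299 bp of chromosome 14, from 49862551 to 49862849, within the long noncoding RNA gene LOC105378179. The peak labelled WT reached 75 tags (59.0 to 94.0) over a background of 6.34 tags (fold enrichment 10.4, −log10 q 46.7.) No peak labelled HA was called there, and the nearest was the one at RN7SL1, 275683 bp away. A summit as high as that labelled WT, scaled by the number of tags and the extension, would hold 46.7 tags in the library labelled HA. If the input labelled HA held the same background per tag as the input labelled WT, 3.95 tags, a peak needed at least 10 tags. The background of the library labelled HA at this place is not listed, since only peaks are given.

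RN7SL1, RN7SL2 and a further 7SL gene, RN7SL3, are nearly identical in sequence, and the authors kept only uniquely mapped reads, so that the numbers at each copy depend on the bases by which the copies differ. RN7SL3 held a peak labelled WT of 15 tags over a background of 2.33 tags (fold enrichment 4.80, −log10 q 3.55), and no peak labelled HA. Of the 4 other genes of similar length with a peak labelled WT, RN7SL3 had the highest −log10 q. Of the 684 annotated RN7SL pseudogenes, 0 held a peak labelled WT and 1 (RN7SL854P, 4 tags, −log10 q of 0) a peak labelled HA. The intervals of these shares, for counting error only, were 0 to 0.558% labelled WT and 0.0258 to 0.823% labelled HA. They include the shares of 0.159% and 0.317% at the other genes of similar length, so the counts do not set the pseudogenes apart from those genes. What the limit to uniquely mapped reads does to these counts was not tested.

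RN7SK spans 332 bp of chromosome 6, from 52995620 to 52995951. The peak labelled WT reached 92 tags (74.2 to 113) over a background of 4.88 tags (fold enrichment 15.8, −log10 q 75.2.) The peak labelled HA reached 15 tags (8.40 to 24.7) over a background of 2.94 tags (fold enrichment 4.06, −log10 q 2.49.) Scaled in this way, the summits came to 4.13 tags labelled WT and 0.930 labelled HA, a ratio of 4.45 (2.56 to 8.26), close to that of RN7SL1. Of the 293 annotated RN7SK pseudogenes, 0 held a peak in either list. The interval of this share, for counting error only, was 0 to 1.29% in each list. It includes the shares of 0.159% labelled WT and 0.317% labelled HA at the other genes of similar length, so the count does not set the RN7SK pseudogenes apart.

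RPPH1 spans 341 bp of chromosome 14, from 20343071 to 20343411. The peak labelled WT reached 39 tags (27.7 to 53.3) over a background of 4.66 tags (fold enrichment 7.06, −log10 q 17.6.) No peak labelled HA was called there, and the nearest lay 238616 bp away. Scaled in the same way as for RN7SL2, a summit of the height labelled WT would hold 24.3 tags in the library labelled HA, where at the scaled background of 2.90 tags a peak needed at least 8 tags.

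RMRP spans 270 bp of chromosome 9, from 35657750 to 35658019. The peak labelled WT reached 34 tags (23.5 to 47.5) over a background of 5.51 tags (fold enrichment 5.37, −log10 q 11.1.) The peak labelled HA reached 16 tags (9.15 to 26.0) over a background of 3.49 tags (fold enrichment 3.79, −log10 q 2.25.) At the same scale, the summits came to 1.53 tags labelled WT and 0.992 labelled HA, a ratio of 1.54 whose interval (0.827 to 2.99) includes 1. The interval covers counting error only, and the summits compared lay 125 bp apart, so the ratio does not compare the libraries at the same position.

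In the library labelled WT the pileups fell in the order RN7SL1, RN7SK, RN7SL2, RPPH1 and RMRP, and the highest was 3.18 times the lowest. The intervals of RN7SL1, RN7SK and RN7SL2 overlapped from each gene to the next, as did those of RPPH1 and RMRP, whereas those of RN7SL2 and RPPH1 did not. In the library labelled HA the highest pileup was 1.2 times the lowest, and the 3 intervals overlapped. The genes are of like length, from 270 to 341 bp, and the pileup is a number at 1 position, so that it does not grow with gene length. The background predicted by the input was raised at all of these peaks, to between 2.78 and 3.77 times the genome-wide level labelled WT and between 2.28 and 3.33 times that labelled HA. The part of this background in the fold enrichments was not tested.

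**Figure D2:**
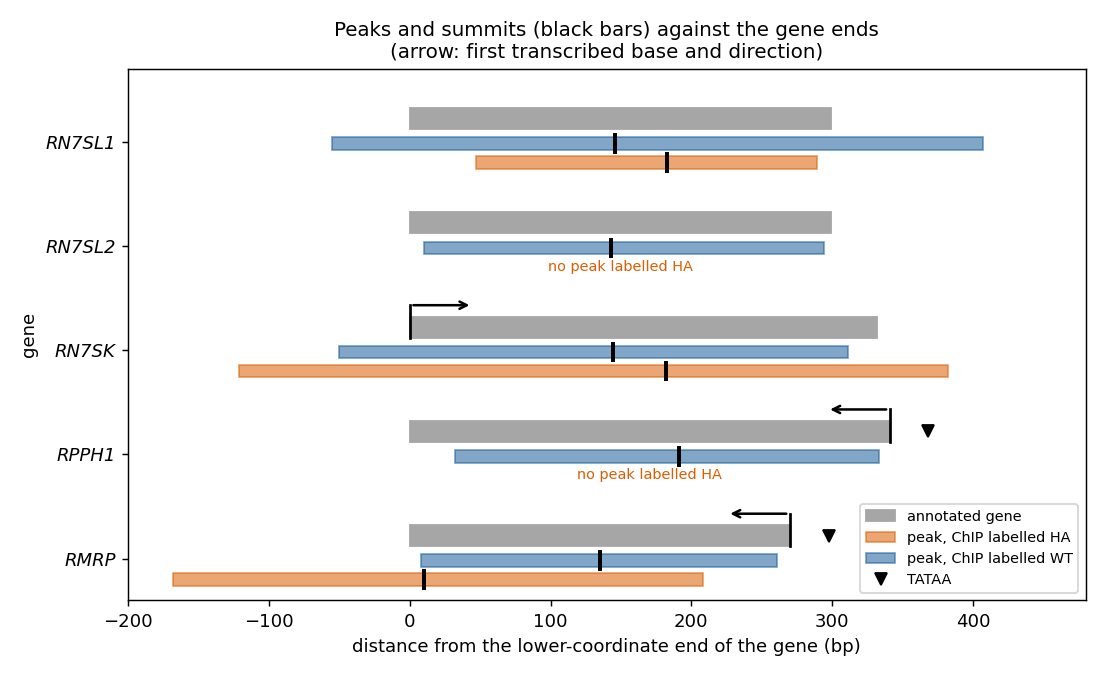
Position of each peak (blue labelled WT, orange labelled HA) and of its summit (black bar) against the annotated gene (grey), in bp from the lower-coordinate end of the gene. Arrows mark the first transcribed base of RN7SK, RPPH1 and RMRP, and triangles the TATAA of RPPH1 and RMRP. The summits labelled WT lie at most 21.5 bp from the middle of the gene, and the summit labelled HA at RMRP lies 124.5 bp from it.

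The summits of all 5 peaks labelled WT lay within the transcribed body, at most 21.5 bp from the middle of the gene. At RMRP the summit was 0.5 bp from the middle, at RN7SL1 3 bp, at RN7SL2 6 bp, at RPPH1 21 bp and at RN7SK 21.5 bp. The peaks labelled WT covered between 88.3% and 100% of the genes. Those at RN7SL2, RPPH1 and RMRP lay wholly inside the gene. Of the 4 other genes of similar length with a peak labelled WT, the summit was inside for 2 and the whole peak for 0. The shortest peak in that list is 234 bp, the extension of a tag, so the distance from a summit to a gene end is read more coarsely than the single base.

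At RPPH1 the peak labelled WT stopped 8 bp inside the first base of the gene and 32 bp inside its 3′ end. It held 0 bases of the upstream stretch printed above, and its end lay 34 bp from the nearest base of TATAA. At RMRP the peak labelled WT stopped 9 bp inside the first base and 8 bp inside the 3′ end. It likewise held 0 bases of the upstream stretch, and its end lay 36 bp from the nearest base of TATAA. At RN7SL2 it stopped 10 bp and 5 bp inside the lower and upper ends of the gene. The peaks at the other two genes crossed gene ends. At RN7SK the peak labelled WT began 50 bp upstream of the first base and stopped 21 bp inside the 3′ end. At RN7SL1, the highest of the 5, it ran 55 bp beyond the lower and 108 bp beyond the upper end of the gene, for a length of 462 bp.

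The 3 peaks labelled HA lay differently against each gene. At RN7SL1 the peak of 242 bp lay wholly inside the gene, and its summit was 37 bp from the summit labelled WT. At RN7SK the peak of 503 bp covered the whole gene and ran 121 bp upstream and 50 bp beyond the 3′ end. It held 36 bases of the upstream window from 335 to 86 bp, of which the peak labelled WT held 0. Its summit lay 182 bp after the start of the gene and 38 bp from that labelled WT. At RMRP the peak of 376 bp began 62 bp inside the first base and ran 168 bp beyond the 3′ end. Its summit lay 10 bp inside the 3′ end, 125 bp from the summit labelled WT, and its upstream end was 89 bp from TATAA. The summits of all 3 peaks labelled HA thus lay within the transcribed body as well. Of the 8 other genes of similar length with a peak labelled HA, the summit was inside for 3 and the whole peak for 2. With 15 to 18 tags under each, the positions of these summits are less precise than those labelled WT.

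**Figure D3:**
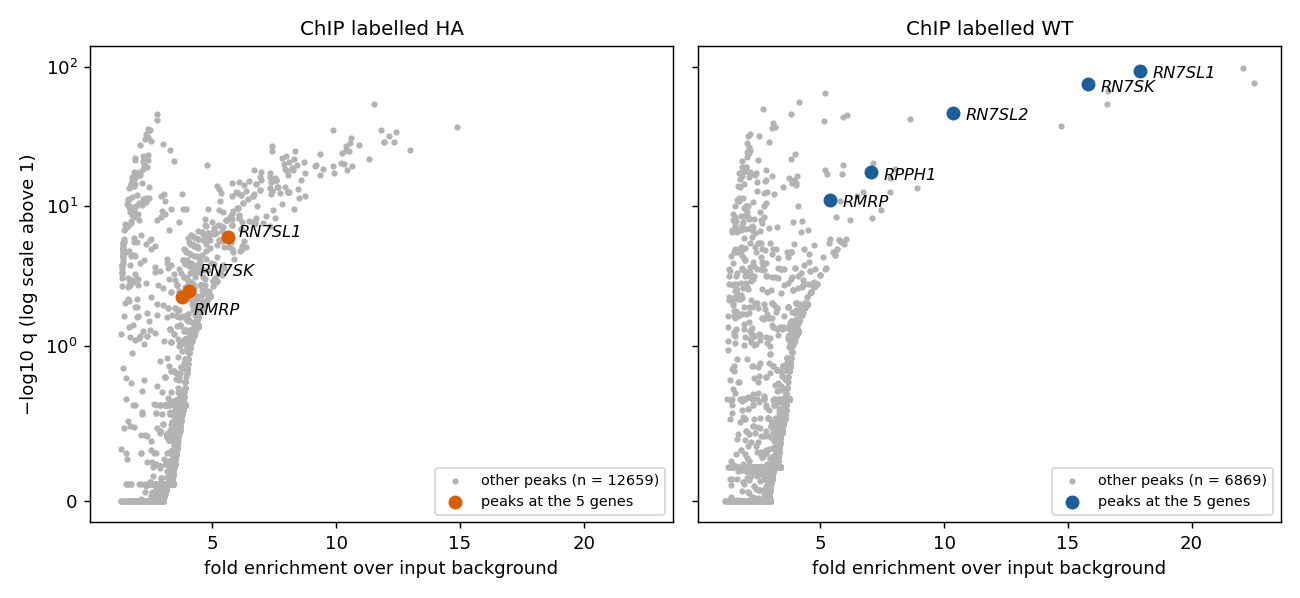
Fold enrichment against −log10 q for all peaks of each list (grey), with the peaks at the 5 genes in colour. In the list labelled WT the 5 peaks reach a fold enrichment of 5.37 to 17.9, and in the list labelled HA the 3 peaks lie between 3.79 and 5.62.

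Within the list labelled WT, the 5 genes stood among the strongest peaks. By −log10 q, RN7SL1 was rank 2, RN7SK rank 4, RN7SL2 rank 10, RPPH1 rank 46 and RMRP rank 82 of 6874. By fold enrichment their ranks were 3, 6, 8, 17 and 38. By pileup alone they were 150, 174, 201, 304 and 335. The 149 peaks with more tags than RN7SL1 had a background of at least 17.8 tags and a median fold enrichment of 1.62. In the list labelled HA, RN7SL1 was rank 255 by −log10 q, RN7SK rank 448 and RMRP rank 476 of 12662, above 98.0%, 96.5% and 96.2% of the peaks. By fold enrichment their ranks were 138, 466 and 1046, and by pileup 457, 534 and 498. Of the peaks called at the p-value cutoff of 0.005, 8100 labelled HA and 3985 labelled WT had a −log10 q of 0. The ranks, percentages and medians given here are thus set against lists made up mostly of such peaks. The median fold enrichment was 2.84 over all peaks labelled WT and 2.93 over all peaks labelled HA, against medians of 10.4 and 4.06 over the peaks at these genes. Among the 8 other genes of similar length with a peak labelled HA, 1 reached a fold enrichment of 5, the pseudogene LOC100189498, named here after its value was seen, with 83 tags and a fold enrichment of 11.5. Of these 8 genes, 2 had a higher −log10 q than RMRP, LOC100189498 and the protein-coding gene H4C2. At H4C2, with 16 tags, the fold enrichment of 4.12 and the −log10 q of 2.85 were also above those of RN7SK labelled HA.

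**Figure D4:**
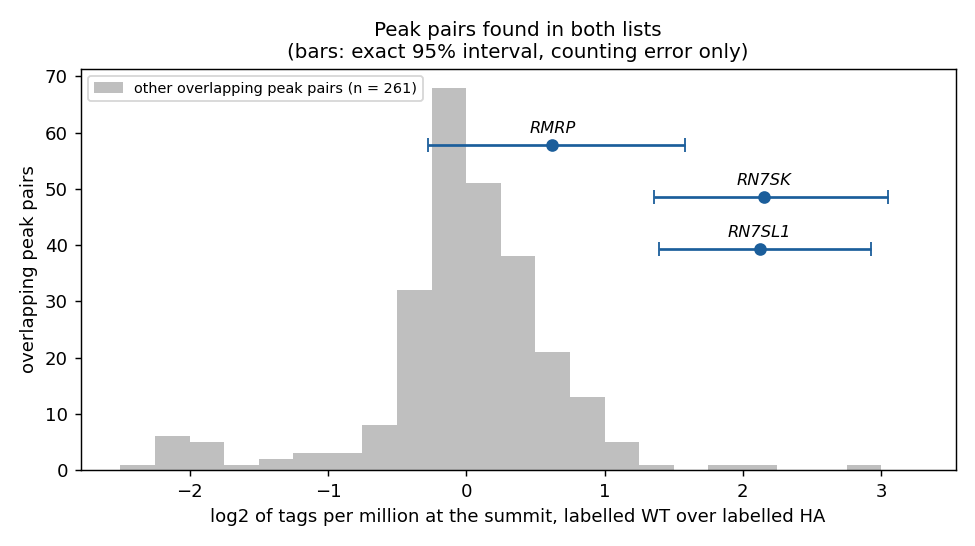
Number of overlapping peak pairs by the log2 ratio of depth-scaled tags at the summit, labelled WT over labelled HA, for the 261 pairs elsewhere (grey), with the 3 pairs at these genes as points and their exact 95% intervals as bars. RN7SL1 and RN7SK lie above 260 of the 261 other pairs, and RMRP lies above 234.

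Peaks that overlapped between the lists gave 264 pairs, of which 3 were at these genes. A place with a peak in only 1 list, such as RN7SL2 or RPPH1, gave no pair. Places with a high summit labelled WT and no peak labelled HA are thus missing from the order below. The pairs held 212 different peaks labelled HA, so some of these peaks stand in more than 1 pair. In the 261 other pairs the median ratio of depth-scaled tags, labelled WT over labelled HA, was 1.004, with quartiles of 0.849 and 1.28. The ratios of 4.35 at RN7SL1 and 4.45 at RN7SK were exceeded by 1 pair, at the beta-globin gene HBB with 7.32, which was named after its value was seen. The ratio of 1.54 at RMRP was exceeded by 27 pairs. The number of tags kept differed by 1.38 times between the libraries and is taken out of these ratios, whereas the longer extension of the library labelled WT is not. The background from the input was not subtracted in these ratios. With it subtracted, the ratios were 4.78 at RN7SL1, 5.24 at RN7SK and 1.65 at RMRP. It was not subtracted in the other pairs, so the order of the pairs without it was not computed. Over the genome-wide background, which takes out both the number of tags and the extension, the ratios were 3.74 at RN7SL1, 3.82 at RN7SK and 1.32 at RMRP.

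The genes of the proteins that bind these RNAs were counted beside all 20037 protein-coding genes, of which 8.58% held a peak labelled WT and 18% a peak labelled HA. With lists of this size and these shares, nothing is read from their counts. Of the 6 signal recognition particle genes (SRP9, SRP14, SRP19, SRP54, SRP68 and SRP72), 0 held a peak labelled WT and 1 a peak labelled HA. This peak, in SRP68, had 6 tags at its summit (fold enrichment 3.42, −log10 q 0.106). Of the 7 genes of the 7SK particle and P-TEFb (LARP7, MEPCE, HEXIM1, HEXIM2, CDK9, CCNT1 and CCNT2), 0 held a peak labelled WT and 1 a peak labelled HA. This gene was CDK9, the kinase of P-TEFb, with 11 tags, a fold enrichment of 2.67, a −log10 q of 0.106 and its summit 169 bp outside the annotated gene. Of the 11 protein genes of RNase P and RNase MRP (POP1, POP4, POP5, POP7, RPP14, RPP21, RPP25, RPP25L, RPP30, RPP38 and RPP40), 0 held a peak in either list.

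Further RNA genes with an upstream RNA polymerase III promoter, 10 in number, were also counted. As a background, 5814 genes with a length from 68 to 157 bp, a range that takes in transfer RNA genes, were used, of which 0.224% held a peak labelled WT and 4.75% a peak labelled HA. Of RNU6-1, RNU6-2, RNU6-7, RNU6-8, RNU6-9 and RNU6ATAC, which encode spliceosomal U6 and U6atac RNA, and RNY1, RNY3, RNY4 and RNY5, which encode Y RNAs, 0 of 10 held a peak labelled WT. At this background a count of 0 of 10 carries no information. In the list labelled HA, 2 of 10 held a peak. RNY4 had 14 tags over a background of 4.06 (fold enrichment 2.96, −log10 q 0.558.) RNY1 had 10 tags over the same background (fold enrichment 2.17, −log10 q 0.) Neither reached the lowest fold enrichment labelled HA among the 5 genes, 3.79 at RMRP. The neighbours GSTA4, PARP2, CCDC107 and ARHGEF39 held 0 peaks in either list.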

How the data were processed

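The 5 genes, the companion lists and the measures were chosen with earlier results of these data known. The submitters' processing notes name BWA 0.7.12, an aligner. Per the file headers, the authors called peaks with MACS 2.1.0.20150420 on unique, deduplicated reads of each ChIP library against its own input, unpooled, with a p-value cutoff of 0.005 and extensions of 201 bp (labelled HA) and 234 bp (labelled WT). The deposited signal is the pileup at the summit, unscaled. The deposited fold enrichment is a ratio to the input background with 1 added to both, and p-values and q-values were deposited as −log10. The genome build is not named in the sources used here, and the genome size set for the peak calls was 3099750718. Positions were read on RefSeq GRCh38.p14. Its chromosome names match, which alone does not identify the build. The gene table lists no strand or exons, so strands are background knowledge.

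Background was computed as (pileup + 1) / fold − 1, and the Poisson p-value recomputed from it equalled the deposited one to 4 significant digits at all 8 peaks. Overlap, background and intervals were tested on simulated data. Companion genes were counted by list, with values only for those that held a peak. Calculations used matplotlib 3.10.9, numpy 2.4.6, scipy 1.17.1 and pandas 2.3.3 in Python 3.11.15. Alternatives were stricter limits, other overlap rules, other scalings and other background genes.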

Additional observations from a re-analysis of the deposited data

How the results depend on the processing

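No paired analysis was possible because there is only 1 ChIP library of each kind. The number of genes with a peak labelled WT was 5 under all 6 alternatives. That labelled HA, 3, became 1 (RN7SL1) with the −log10 q limited to 5 or more and 1 (RN7SL1) with the fold enrichment so limited, and was 3 in the top 1000 by −log10 q, with the summit inside the gene, with 50% of the gene covered and with 500 bp added on either side. The share of similar-length genes with a peak, 0.317% labelled HA and 0.159% labelled WT, was 9.65% and 4.51% over all annotated genes, which are longer, 0.0397% and 0% under the limit on −log10 q, and 0.0397% and 0% under the limit on fold enrichment. Without pseudogenes, chosen after seeing the data, it was 0.694% and 1.39% of 144 genes. The share labelled WT here stands for 2 genes, of which RN7SL3 is 1. The WT to HA ratios stayed within their intervals under 9 of 9 alternatives, and 8 of 8 fold enrichments with nothing added stayed within the 95% Poisson interval of their pileup put on the scale of the fold enrichment. That of RN7SK labelled HA went from 4.06 to 5.10 with nothing added, across the limit of 5. The peaks labelled HA rest on 15 to 18 tags, which limits the precision of their values.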
